A study of Mus musculus with 30 samples.

Results

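The genes described here are the WNT ligands, their receptors and the secreted proteins that modulate them, followed through 5 sorted stromal populations of the newborn mouse thymus. They were chosen by gene symbol alone: Wnt genes, Frizzled (Fzd) genes, Sfrp1 to Sfrp5, Dkk1 to Dkk4, Rspo1 to Rspo4, Lgr4 to Lgr6, Lrp5, Lrp6, Wif1, Frzb and Axin2. This gave 49 of the 18847 protein-coding genes in the deposited table, of which 19 were Wnt ligands and 10 were Frizzled receptors. Mice of strain B6.SJL and of mixed sex were given a human Fc protein (control) or aflibercept (Trap) 1 day after birth, and the thymus was collected at 3 days of age. Aflibercept is a soluble fusion of VEGF receptor parts that captures vascular endothelial growth factor A. After removal of CD45-positive cells, the populations were sorted as CD140a+ mesenchyme, CD146+ mesenchyme (both negative for EpCAM and CD31), EpCAM-positive cells with high Ly51, the cortical thymic epithelium (cTEC), EpCAM-positive cells with little or no Ly51, the medullary epithelium (mTEC), and endothelium by CD31, with 2 control and 4 Trap libraries of each. No gene was deleted and no transgene is named for any group. The labels do not say whether a library came from 1 animal or from several, so a p-value here reflects the spread from library to library, part of which may be technical. Levels are the authors' FPKM, which are scaled per kilobase of transcript and can be set side by side between genes. Differences are of log2(FPKM + 1), which understates the change of genes at low levels, and are given with a standard error (SE). In sorted bulk samples, fewer cells that express a gene and less RNA per cell cannot be told apart.

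WNT proteins are lipid-modified ligands that act over short distances. They bind Frizzled receptors together with the co-receptors Lrp5 or Lrp6, which stabilises beta-catenin and lets TCF and LEF factors switch on targets such as Axin2, or they act through other branches that control cell polarity and movement. R-spondins bind Lgr4, Lgr5 or Lgr6 and keep Frizzled receptors at the cell surface, Sfrp proteins and Wif1 bind WNT ligands outside the cell, and Dkk proteins other than Dkk3 bind Lrp5 and Lrp6. In the thymus, WNT signals are known to support Foxn1 and the upkeep of the epithelium.

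The libraries summed to 184608 to 241993 FPKM, and the number of reads behind them is unknown. Each population carried its own markers. The 6 endothelial markers summed to 1264 to 1371 FPKM in endothelium and to at most 36.4 elsewhere, and the 6 fibroblast markers to 4629 to 6562 in CD140a+ mesenchyme and to at most 420.1 elsewhere. The 6 mural markers summed to 4726 to 6182 in CD146+ mesenchyme, with 507 to 760 in mTEC as the next highest. The 6 cTEC markers summed to 829 to 1226 in cTEC, with 87.8 to 112 in mTEC and at most 53.3 elsewhere. The mTEC list separated less well. Its 6 markers summed to 985 to 2675 in mTEC, to 250 to 866 in cTEC and to at most 211 in endothelium. Within it, Ccl21a was at 173 to 749 and Krt5 at 66.1 to 95.2 in cTEC. Thymocyte markers summed to 55.0 to 141 in cTEC libraries and to at most 13.4 in other libraries, and parathyroid markers to 447 to 2480 in mTEC. Control replicate 1 and Trap replicate 2 stood apart in 3 populations. In CD140a+ mesenchyme they held more of the pericyte gene Rgs5 (39.4 and 23.3 FPKM, against 0.51 to 4.28 in the other 4) and a higher mural sum (106 and 85.2 against 41.8 to 54.8). In CD146+ mesenchyme these libraries held less Rgs5 (3260 and 2783 FPKM, against 3884 to 4382 in the other 4) and more of the collagen gene Col1a1 (134 and 166 against 30.5 to 71.0), while Pdgfra, which encodes the CD140a antigen, was at 3.33 and 2.14 against 1.28 to 2.46. In endothelium, Trap replicate 2 held epithelial transcripts, with Foxn1 at 11.04, Krt5 at 7.43 and Krt8 at 23.3 FPKM. Control replicate 1 held Krt8 at 8.89, where the other 4 libraries had Krt8 at 0.46 to 2.51. Foxn1 and Krt5, at 0.08 and 0.32 in control replicate 1, lay within the range of those 4 libraries.

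More of these genes were highest in CD140a+ mesenchyme than in any other population. A member was called highest in a population when all 4 comparisons with the other populations passed in limma at an adjusted p under 0.05. By that rule 14 of the 40 members that could be tested were highest in CD140a+ mesenchyme, where 5.49% of all 16425 genes tested were. In cTEC 5 members were highest (4.97% of all genes), in mTEC 6 (16.5% of all genes), in CD146+ mesenchyme 2 (4.14%) and in endothelium 2 (6.17%). As a share of the members these were 35%, 12.5%, 15%, 5% and 5%, so the members' share lay well above the background in CD140a+ mesenchyme, above it in cTEC and near it in the other 3 populations. Without control replicate 1 and Trap replicate 2 of each population, the counts were 14, 4, 5, 1 and 2 in the same order. The other 11 members were highest nowhere by this rule: Axin2, Dkk1, Dkk4, Frzb, Fzd6, Fzd8, Fzd10, Rspo4, Sfrp1, Wnt1 and Wnt5b. A gene was tested when it reached 1 FPKM in at least 2 libraries, and 9 members did not: Wnt3, Wnt3a, Wnt7a, Wnt8a, Wnt9b, Wnt16, Fzd9, Rspo2 and Wif1, whose highest value in any library lay between 0.16 FPKM (Wif1) and 1.30 FPKM (Wnt16). Between pairs of populations, the members called in either direction numbered 24 for CD140a+ against CD146+ mesenchyme (31.2% of all genes were called), 27 against cTEC (43.9%), 31 against mTEC (57.2%) and 26 against endothelium (41%). CD146+ mesenchyme had 21 against cTEC (41.6%), 25 against mTEC (55.7%) and 18 against endothelium (35.7%). cTEC had 23 against mTEC (41.2%), with 6 higher (12.9%) and 17 lower (28.3%) in cTEC, and 23 against endothelium (44.7%), and mTEC against endothelium had 25 (57.8%). A mean of 1 FPKM was reached by 28 of the 49 members in CD140a+ mesenchyme, 27 in mTEC, 22 in CD146+ mesenchyme, 17 in endothelium and 15 in cTEC, and by 37 in at least 1 population.

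**Figure D1:**
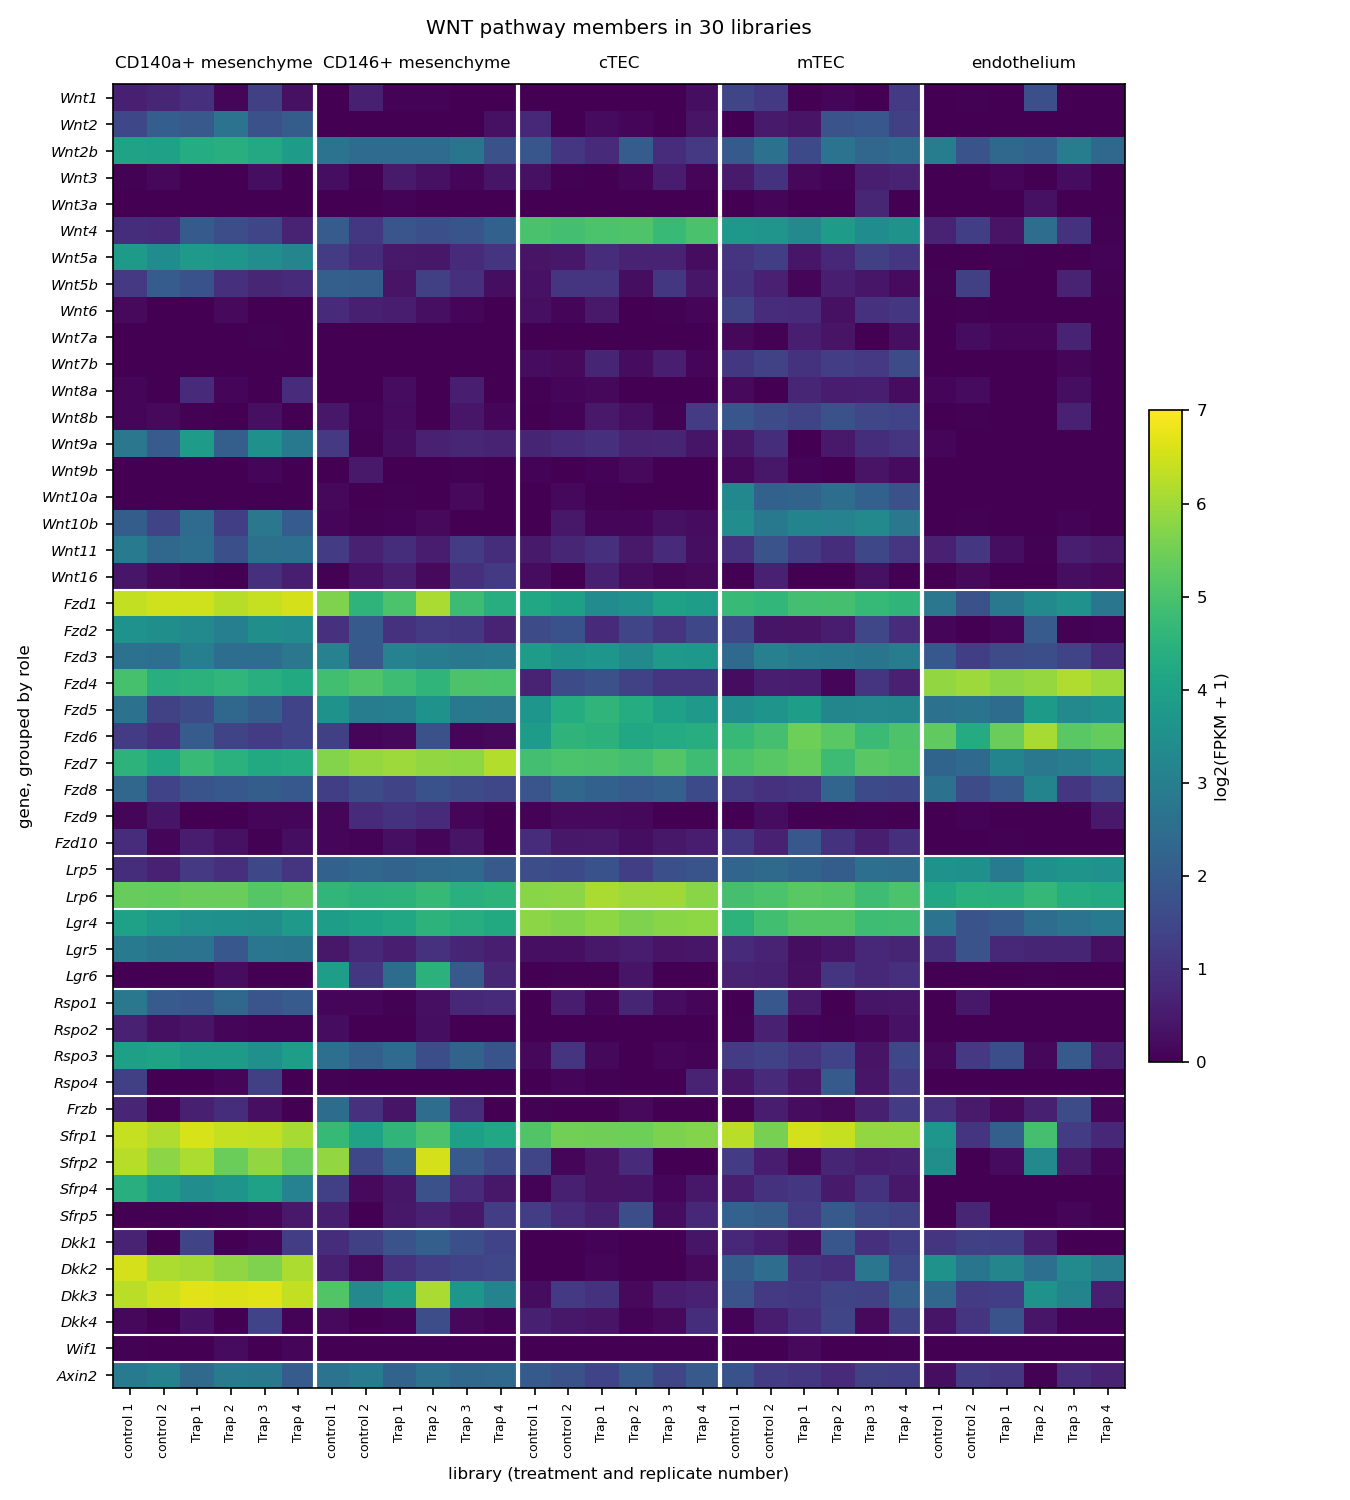
Heat map of log2(FPKM + 1) for the 49 genes (rows, grouped by role) in the 30 libraries (columns, grouped by sorted population, with control and Trap replicates marked). Dkk2, Dkk3, Fzd1 and Sfrp2 are bright in all 6 CD140a+ libraries, Wnt4 and Lgr4 in cTEC, and Fzd4 in endothelium, while among the CD146+ libraries Sfrp2 is bright in control replicate 1 and Trap replicate 2.

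The start-site windows of 5 members are printed here. Wnt11 and Dkk2 were highest in CD140a+ mesenchyme, Axin2 is the pathway's own target, Fzd7 was the member that passed a Trap contrast, and Wnt5b had the smallest p for Trap over all populations. Each is the 250 bases before a transcript start in RefSeq on the build GRCm38.p6, 5′ to 3′ on the strand of the gene, with 2 motifs in capitals. The motif of TCF and LEF factors was searched as CTTTGAT and, for the other strand, with the reverse complement ATCAAAG. The TATA box, added after the values were seen, was searched as TATAAA and with its reverse complement TTTATA, and the 2 motifs do not overlap each other.
Wnt11, chr7:98834862-98835111, plus strand: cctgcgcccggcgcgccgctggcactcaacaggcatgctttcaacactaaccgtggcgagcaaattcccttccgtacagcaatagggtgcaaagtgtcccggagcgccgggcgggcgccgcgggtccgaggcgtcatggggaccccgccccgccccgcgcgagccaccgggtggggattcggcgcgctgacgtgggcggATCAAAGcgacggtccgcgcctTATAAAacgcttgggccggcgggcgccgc
Dkk2, chr3:132085042-132085291, plus strand: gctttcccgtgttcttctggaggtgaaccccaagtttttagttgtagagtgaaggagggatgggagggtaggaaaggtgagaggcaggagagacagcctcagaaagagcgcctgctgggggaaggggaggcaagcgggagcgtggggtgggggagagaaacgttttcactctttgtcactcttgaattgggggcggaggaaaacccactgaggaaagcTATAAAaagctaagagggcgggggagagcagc
Wnt5b, chr6:119449387-119449636, minus strand, a start inside the gene: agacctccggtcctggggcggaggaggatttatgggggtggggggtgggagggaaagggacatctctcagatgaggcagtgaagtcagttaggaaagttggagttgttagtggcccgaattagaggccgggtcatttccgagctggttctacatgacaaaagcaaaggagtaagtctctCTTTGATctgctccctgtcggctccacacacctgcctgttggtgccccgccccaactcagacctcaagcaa
Axin2, chr11:108920099-108920348, plus strand: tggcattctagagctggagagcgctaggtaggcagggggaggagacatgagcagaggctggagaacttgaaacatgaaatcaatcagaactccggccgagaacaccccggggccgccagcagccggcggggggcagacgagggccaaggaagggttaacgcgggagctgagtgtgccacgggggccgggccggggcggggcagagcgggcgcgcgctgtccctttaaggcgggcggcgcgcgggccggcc
Fzd7, chr1:59481897-59482146, plus strand: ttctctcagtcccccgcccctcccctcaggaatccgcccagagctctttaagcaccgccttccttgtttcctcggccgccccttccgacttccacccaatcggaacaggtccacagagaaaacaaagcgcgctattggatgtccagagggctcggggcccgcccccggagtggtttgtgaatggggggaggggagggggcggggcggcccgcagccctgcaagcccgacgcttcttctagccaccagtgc
RefSeq starts were matched for 32 of the 49 members, which had 35 starts. The TCF/LEF letters were found at 2 of the 35, Wnt11 (from position -51, counted from the start) and the Wnt5b start shown (from -71), and at 3.21% of all 32851 starts. Neither motif was found at the other Wnt11 start (window from chr7:98838595). The same held for the other Wnt5b starts (windows from chr6:119467212 and chr6:119544348). The TATA letters were found at 5 member starts and at 12.4% of all starts. The 5 were Wnt11 (from -29), Dkk2 (from -32), Dkk1 (from -54), Fzd1 (from -202) and Wif1 (from -232, as TTTATA). They were counted anywhere in the 250 bases, so the count is not one of working TATA boxes. The letters were not in the Axin2 and Fzd7 windows shown. Member windows held a median of 22 CG dinucleotides, where the median over all windows was 6, with 24 in Axin2, 37 in Wnt11 and 7 in Dkk2. A match of letters is a description and says nothing of whether a factor binds.

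Wnt2b and Wnt4 were between them the leading Wnt transcripts of all 5 populations. Wnt4, a ligand known from kidney and gonad development, took the largest mean share of the summed ligand level in cTEC and in mTEC, where Wnt10b and Wnt10a followed. Wnt2b took the largest mean share in CD140a+ mesenchyme (34.0%), where Wnt5a followed, in CD146+ mesenchyme (35.7%) and in endothelium. Summed over the 19 ligands, CD140a+ mesenchyme had 50.3 ± 8.96 FPKM (SD, n = 6), mTEC 38.5 ± 5.33, cTEC 35.5 ± 2.83, CD146+ mesenchyme 12.5 ± 2.75 and endothelium 7.72 ± 2.70. The ranges of CD140a+ mesenchyme (41.6 to 64.7) and mTEC (29.3 to 45.0) overlapped, while every cTEC library (30.8 to 38.2) was below every CD140a+ library. The highest library of CD146+ mesenchyme (17.3) was below the lowest of these 3 populations.

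Wnt4 (chr4:137277489-137299726) reached 30.9 and 29.3 FPKM in the control cTEC libraries and 31.2, 32.3, 25.4 and 30.6 with Trap. In mTEC it lay between 8.84 and 13.3 with a median of 11.2, and in the remaining populations no library passed 4.64. The cTEC libraries did not overlap with any other, and Wnt4 made up 84.2% ± 1.96 of the summed ligand FPKM there. The difference between cTEC and mTEC was 1.34 ± 0.30 on the log2 scale (limma, adjusted p = 0.00062), and that between mTEC and CD140a+ mesenchyme was of the same sign, since CD140a+ minus mTEC was -2.45 ± 0.30 (limma, adjusted p = 8.51e-08). CD140a+ mesenchyme, CD146+ mesenchyme and endothelium, with means of 1.52, 2.52 and 1.34, did not differ beyond their spread for this gene (limma, adjusted p of 0.164 for CD140a+ against CD146+ mesenchyme, 0.718 for CD140a+ mesenchyme against endothelium and 0.0538 for CD146+ mesenchyme against endothelium).

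Wnt2b (chr3:104945272-104961921), a ligand that signals through beta-catenin, was at 15.5 and 15.1 FPKM in control CD140a+ mesenchyme and at 19.3, 20.3, 17.9 and 13.7 with Trap. Its mean was 16.95 ± 2.59 there, against 4.63 ± 1.76 in endothelium, 4.45 ± 1.17 in CD146+ mesenchyme, 4.02 ± 1.32 in mTEC and 1.64 ± 0.99 in cTEC. Wnt2b and Wnt4 were above 1 FPKM on average in every population. In endothelium, though, Wnt4 was at 0.61 and 1.45 in controls and at 0.30, 4.64, 1.03 and 0.02 with Trap. The 4.64 was that of Trap replicate 2, which held epithelial transcripts. For Wnt2b, endothelium, CD146+ mesenchyme and mTEC could not be ordered (adjusted p of 0.612 to 0.975 in limma). In endothelium Wnt2b made up 64.4% ± 25.3 of the small ligand sum.

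Wnt5a (chr14:28504750-28527448), the best known ligand of the branch that does not use beta-catenin, lay between 8.08 and 13.02 FPKM in CD140a+ mesenchyme, with a median of 10.8. No library of another population passed 1.51, and endothelium was at 0.04 or less. CD140a+ mesenchyme minus CD146+ mesenchyme was 2.67 ± 0.18 (limma, adjusted p = 3.13e-12), so the 2 mesenchymal populations stood far apart for this ligand. Wnt9a (chr11:59306928-59333552) was variable within CD140a+ mesenchyme, with 5.80 and 3.01 in controls and 13.3, 3.35, 10.5 and 6.06 with Trap, and reached at most 1.22 elsewhere. Its CD140a+ libraries were all above those of the other populations. Wnt11, for which the mean in CD140a+ mesenchyme was 4.56 ± 1.33, and Wnt2, with 3.14 ± 1.21, were also highest there, and the mean of neither reached 1.5 FPKM elsewhere.

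In mTEC, Wnt10b (chr15:98770712-98778150) and Wnt10a, paired ligands known from skin, hair and tooth development, were near 0 in cTEC. Wnt10b was at 9.73 and 6.16 FPKM in control mTEC and at 7.93, 7.58, 8.87 and 5.91 with Trap, against at most 0.37 in cTEC. CD140a+ mesenchyme also carried it, between 1.46 and 5.86, and mTEC stood above CD140a+ mesenchyme by a margin that passed (CD140a+ minus mTEC of -1.17 ± 0.20, limma, adjusted p = 1.46e-05). Wnt10a was at 8.55 and 3.51 in control mTEC and at 3.67, 4.79, 3.55 and 2.36 with Trap, was listed at 0 in all 6 CD140a+ and all 6 endothelial libraries, and did not pass 0.13 in any other library. Wnt6, Wnt7b and Wnt8b were highest in mTEC too, at means of 0.93, 1.42 and 2.03 FPKM, and the number of reads behind such low values is unknown. Parathyroid and mesothelial markers were also highest in mTEC libraries (parathyroid 447 to 2480 FPKM in all 6, mesothelial 31.0 to 61.5), and their part in the low ligands was not tested.

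**Figure D2:**
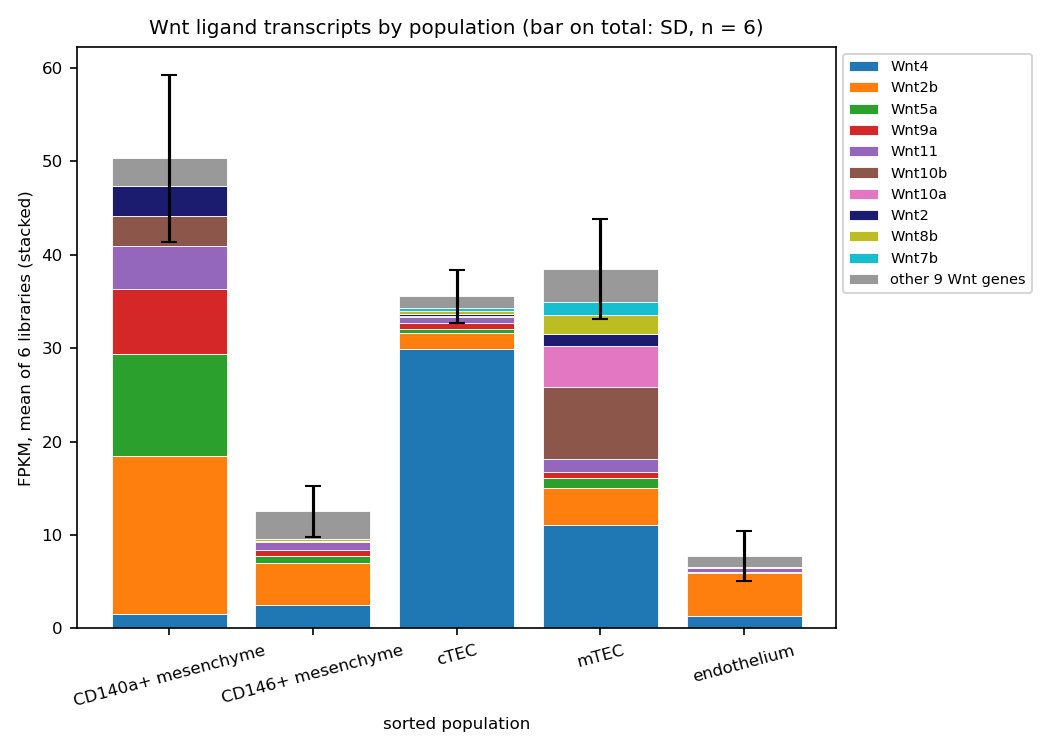
Stacked bars of the mean FPKM of each Wnt ligand over the 6 libraries of a population, with the SD of the summed value as a bar on the total (n = 6). Wnt4 fills most of the cTEC column, Wnt2b and Wnt5a the lower part of the CD140a+ column, and endothelium has the lowest total at 7.72 FPKM.

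Of the ligand genes, 8 lie next to each other in pairs with no other protein-coding gene between, on the build GRCm38. Wnt6 (chr1:74771892-74785322) and Wnt10a (chr1:74791516-74804179) are 6193 bases apart, and both were highest in mTEC. Wnt10b and Wnt1 (chr15:98789857-98793837) are 11706 bases apart, and both had their highest mean in mTEC, where Wnt1 was at 0.73 FPKM and was not above all 4 other populations by the rule. Wnt3a and Wnt9a are 16175 bases apart and Wnt9b and Wnt3 are 24328 apart, and of these 4 only Wnt9a could be tested.

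The Frizzled receptors were present in every population, but with different leading members. Their summed level ran from 97.7 ± 7.59 FPKM in cTEC to 151 ± 8.60 in CD140a+ mesenchyme (SD, n = 6), while the leading gene was Fzd1 in CD140a+ mesenchyme (56.5% ± 4.29 of the sum), Fzd7 in CD146+ mesenchyme (41.9% ± 7.38), cTEC (30.9% ± 1.66) and mTEC (30.2% ± 3.38), and Fzd4 in endothelium (48.8% ± 9.51).

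Fzd1 (chr5:4753839-4758035), a widely expressed receptor, was at 80.5 and 89.5 FPKM in control CD140a+ mesenchyme and at 89.6, 75.6, 82.1 and 92.7 with Trap. CD146+ mesenchyme followed at 19.7 to 67.7, and there the highest values, 49.4 and 67.7, were those of control replicate 1 and Trap replicate 2, with 19.7 to 31.3 in the other 4 libraries. The order went on with mTEC at 26.1 ± 2.81, cTEC at 13.5 ± 2.90 and endothelium at 6.56 ± 2.89. CD146+ mesenchyme and mTEC could not be told apart (0.35 ± 0.24, limma, adjusted p = 0.233), and all other neighbours in that order differed. Fzd2 (chr11:102604396-102608058) was also highest in CD140a+ mesenchyme, at lower levels, between 7.06 and 11.2 in CD140a+ mesenchyme and at most 3.00 in any library elsewhere.

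Fzd7 (chr1:59482424-59486955), a receptor often studied in stem cells and epithelia, was at 50.8 and 58.7 FPKM in control CD146+ mesenchyme and at 62.4, 57.0, 54.7 and 72.0 with Trap. mTEC at 33.8 ± 4.24 and cTEC at 30.2 ± 2.46 came next and did not differ beyond their spread (limma, adjusted p = 0.332), followed by CD140a+ mesenchyme at 20.5 ± 2.94 and endothelium at 6.21 ± 1.94. The CD146+ libraries did not overlap with any other, and CD146+ minus mTEC was 0.77 ± 0.12 (limma, adjusted p = 3.26e-06). Control replicate 1 and Trap replicate 2 did not stand out among the CD146+ libraries for Fzd7.

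Fzd4 (chr7:89404355-89413134), the receptor for norrin and for WNT7 ligands on brain and retinal vessels, was at 56.9 and 62.3 FPKM in control endothelium and at 54.5, 58.4, 70.8 and 61.3 with Trap. Both mesenchymal populations carried it too, with 29.1 ± 3.74 in CD146+ and 22.3 ± 4.30 in CD140a+ mesenchyme, which did not differ beyond their spread (limma, adjusted p = 0.149). Epithelial libraries had at most 2.33. Endothelium minus CD146+ mesenchyme was 1.02 in size (CD146+ minus endothelium of -1.02 ± 0.18, limma, adjusted p = 4.76e-05). Wnt7a and Wnt7b reached no more than 0.59 and 0.06 FPKM in endothelium, Ndp, which encodes norrin, could not be tested in these data, and Tspan12, a Fzd4 partner in that pathway named after its values were seen, was highest on average in endothelium at 23.0 ± 6.53.

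Fzd3 (chr14:65192449-65262463), a receptor of the planar polarity branch, and Fzd5 (chr1:64730558-64737751) were highest in cTEC. Fzd3 lay between 9.09 and 13.5 FPKM there with a median of 11.99, and at most at 7.52 in any other library. Fzd5 lay between 11.8 and 22.8 in cTEC with a median of 17.1, and its cTEC range met that of mTEC (8.20 to 13.8) and of endothelium (4.60 to 12.98). The margin of Fzd5 over mTEC was small, 0.63 ± 0.25 (limma, adjusted p = 0.0480). Fzd6, for which endothelium had a mean of 40.2 ± 15.4, mTEC 32.0 ± 6.82 and cTEC 18.8 ± 3.27, was at 3.08 or less in all 12 mesenchymal libraries. Endothelium and mTEC could not be ordered for Fzd6 (mTEC minus endothelium of -0.19 ± 0.27, limma, adjusted p = 0.571), and the 2 endothelial controls differed between themselves (38.4 and 19.0). The endothelial library with the most Fzd6, Trap replicate 2 at 66.9, was the one that held epithelial transcripts.

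The co-receptors were highest in different populations. Lrp6 (chr6:134446476-134566965) was the more abundant in every population and highest in cTEC, with 53.0 and 54.4 FPKM in controls and 67.8, 62.1, 63.3 and 53.4 with Trap. CD140a+ mesenchyme followed at 39.1 ± 2.52, then mTEC at 31.7 ± 3.11, CD146+ mesenchyme at 22.4 ± 1.42 and endothelium at 19.9 ± 2.49, and the last pair did not differ beyond its spread (limma, adjusted p = 0.122). Lrp5 (chr19:3584828-3686564) was highest in endothelium, with 10.9 and 10.4 in controls and 6.55, 10.4, 11.4 and 10.7 with Trap, and lowest in CD140a+ mesenchyme at 1.08 ± 0.43. All endothelial libraries were above the highest of any other population (4.91), and endothelium against the mean of the other 4 populations gave 1.67 ± 0.13 (limma, adjusted p = 1.68e-11). As a share of the summed Lrp5 and Lrp6 level, Lrp5 was 33.5% ± 5.34 in endothelium and 14.3% ± 1.83 in CD146+ mesenchyme. The endothelium of these mice thus carried the most Lrp5 and, with CD146+ mesenchyme, the least Lrp6.

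**Figure D3:**
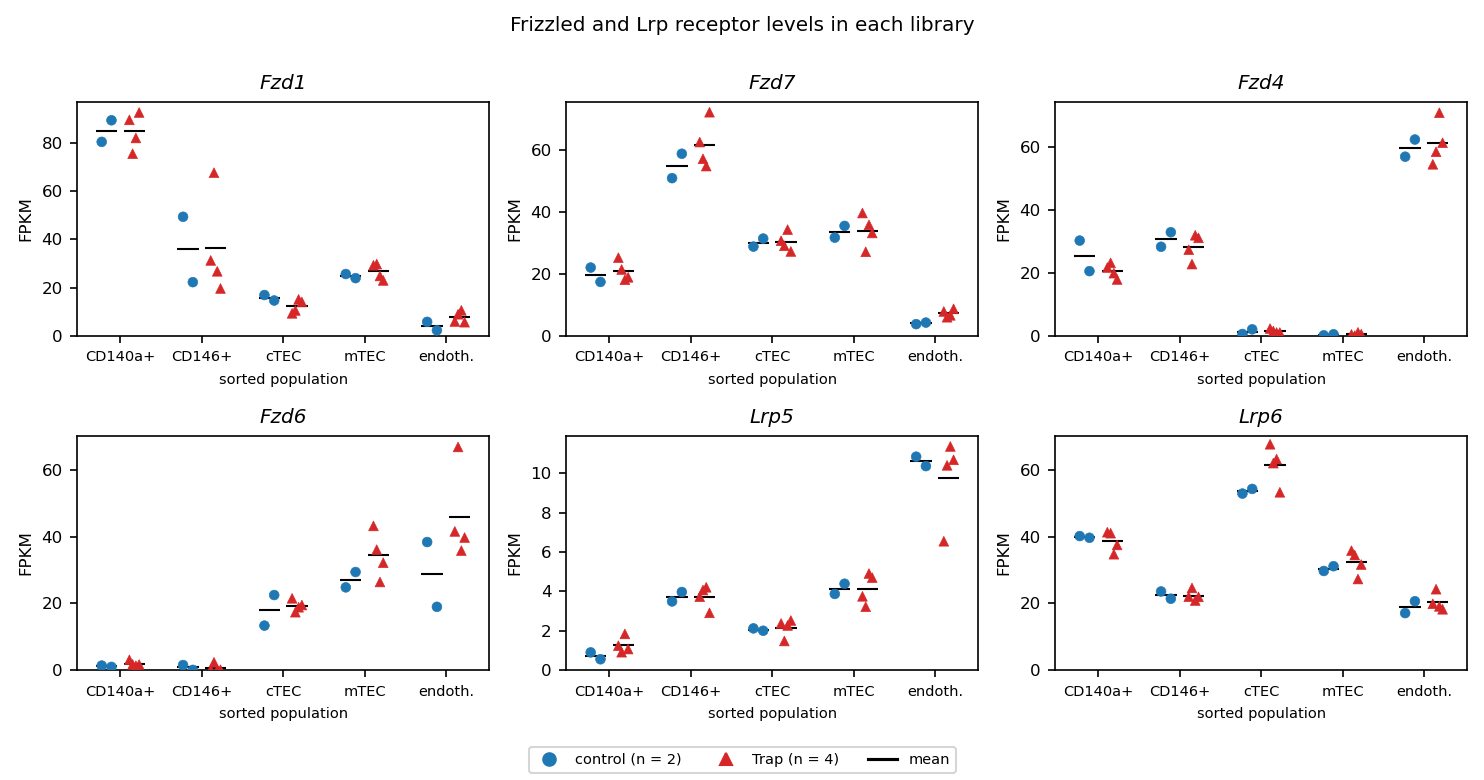
FPKM of 6 receptor genes in each library by sorted population, with control libraries as circles (n = 2), Trap libraries as triangles (n = 4) and the group mean as a line. Fzd1, Fzd7 and Fzd4 lead in CD140a+ mesenchyme, CD146+ mesenchyme and endothelium, and the Lrp5 points of endothelium lie between 6.55 and 11.4.

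Of the R-spondins, Rspo1 and Rspo3 were highest in CD140a+ mesenchyme, and each of the Lgr receptors was highest in a different population. Rspo3 (chr10:29452416-29535867), which is known to act on vessels as well as on stem cells, was at 14.7 and 15.3 FPKM in control CD140a+ mesenchyme and at 13.1, 12.98, 10.4 and 14.0 with Trap. CD146+ mesenchyme followed at 3.53 ± 1.05, and no library of the other populations passed 2.89. CD140a+ minus CD146+ mesenchyme was 1.68 ± 0.28 (limma, adjusted p = 3.18e-05). Rspo1 was likewise highest in CD140a+ mesenchyme at 3.60 ± 1.28, and Rspo4 reached a mean of 1.02 at most, in mTEC.

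Lgr4 (chr2:109917647-110014257), the widely expressed R-spondin receptor, was at 54.0 and 50.1 FPKM in control cTEC and at 54.8, 48.6, 53.1 and 54.8 with Trap, the narrowest spread relative to its mean of any member in any of the 5 populations. mTEC followed at 28.9 ± 4.49, CD146+ mesenchyme at 17.8 ± 2.87, CD140a+ mesenchyme at 11.8 ± 1.85 and endothelium at 4.54 ± 1.54, and every pair differed (limma, adjusted p of 0.0225 or less). Lgr5 (chr10:115450311-115587780), a stem cell marker of the gut and a WNT target, was at 6.35 and 5.46 in control CD140a+ mesenchyme and at 5.35, 2.71, 5.68 and 5.56 with Trap, and passed 1.01 elsewhere only in endothelial control replicate 2, at 2.43. Lgr6 (chr1:134983301-135105276) was read in CD146+ mesenchyme, but unevenly, with 14.2 and 1.18 in controls and 4.57, 21.4, 2.89 and 0.69 with Trap. The 2 high values belong to the libraries with more Col1a1 and less Rgs5 given above. CD140a+ libraries had Lgr6 at 0.17 FPKM or less. The part of other cells in the CD146+ values of Lgr6 was not tested. CD146+ minus mTEC was 1.76 ± 0.43 for Lgr6 (limma, adjusted p = 0.00104) and 0.78 ± 0.32 without control replicate 1 and Trap replicate 2 of each population (limma, adjusted p = 0.0540), so the call rested on those libraries.

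Of the 9 secreted inhibitors tested (Dkk and Sfrp genes and Frzb), 4 were highest in CD140a+ mesenchyme (Dkk2, Dkk3, Sfrp2 and Sfrp4), 1 was highest in mTEC (Sfrp5) and 4 were highest nowhere by the rule above. Dkk3 (chr7:112116017-112159057), a relative of the Dkk inhibitors that is not known to bind Lrp5 and Lrp6, was at 76.5 and 88.5 FPKM in control CD140a+ mesenchyme and at 101, 97.4, 100.1 and 80.6 with Trap. In CD146+ mesenchyme it was at 33.1 and 8.88 in controls and at 13.3, 67.9, 11.9 and 7.77 with Trap, again with control replicate 1 and Trap replicate 2 on top. The difference between the 2 populations was 2.28 ± 0.48 (limma, adjusted p = 0.000499). It was 3.09 without control replicate 1 and Trap replicate 2 of each population, an exclusion chosen after seeing the data. Those CD146+ libraries were the highest for Dkk3, so leaving them out raises the difference by itself and adds no support.

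Dkk2 (chr3:132085292-132180304), which binds Lrp6 and can inhibit or weakly activate the pathway, was at 92.6 and 68.9 FPKM in control CD140a+ mesenchyme and at 65.5, 55.7, 48.7 and 68.8 with Trap. Endothelium followed at 7.57 ± 2.23, mTEC at 2.88 ± 1.97, CD146+ mesenchyme at 1.08 ± 0.66 and cTEC at 0.04 ± 0.05, and every pair differed (limma, adjusted p of 0.0101 or less). CD140a+ mesenchyme minus endothelium was 3.04 ± 0.25 (limma, adjusted p = 5.9e-11). Dkk2 was thus higher in endothelium than in CD146+ mesenchyme. The endothelial libraries held fibroblast markers at a sum of 6.43 to 15.4 FPKM (1 to 5 of the 6 markers at 1 FPKM or more) and the CD146+ libraries at 271 to 420.1 (all 6 markers), and the part of other cells in the Dkk2 levels was not tested. Dkk1 reached a mean of 2.00 at most, in CD146+ mesenchyme, and Dkk4 a mean of 0.84, in mTEC.

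Sfrp1 (chr8:23411502-23449632) was high in 3 populations and highest nowhere, with 79.7 ± 9.84 FPKM in CD140a+ mesenchyme, 68.4 ± 17.2 in mTEC and 43.9 ± 6.15 in cTEC. None of the 3 pairs among these populations passed (limma, adjusted p of 0.147 to 0.654). In both epithelial populations it was nearly the only Sfrp, at 95.9% ± 3.32 of the class in cTEC and 93.9% ± 2.33 in mTEC. In endothelium it was at 11.8 and 1.09 in controls and at 3.38, 29.4, 1.34 and 0.76 with Trap. The 2 high libraries were again control replicate 1 and Trap replicate 2, which had Krt8 at 8.89 and 23.3. In control replicate 1 Epcam (1.01) and Krt18 (1.82) lay within the range of the remaining endothelial libraries. The same 2 libraries held Sfrp2 at 10.08 and 8.84, with 0 to 0.42 in the remaining ones, and no epithelial library passed 1.74 for Sfrp2. The part of epithelial transcripts in these Sfrp1 values was not tested.

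Sfrp2 (chr3:83766321-83774316) was at 74.5 and 54.5 FPKM in control CD140a+ mesenchyme and at 69.3, 41.9, 57.3 and 41.8 with Trap. In CD146+ mesenchyme it was at 56.9 and 1.85 in controls and at 3.60, 92.6, 2.86 and 1.92 with Trap, so 2 of these 6 libraries lay within or above the CD140a+ range and 4 at 3.60 or less. In the same 2 libraries the fibroblast list summed to 394 and 420.1 FPKM against 271 to 327. All 6 of its markers were at 1 FPKM or more in each CD146+ library. Col1a1 alone was above the other 4 libraries in both (134 and 166 against 30.5 to 71). Lum, at 8.43 and 10.9, and Dcn, at 24.7 and 20.6, which mark fibroblasts, overlapped with the other 4 (3.81 to 11.04 and 13.2 to 21.5). Dpt and Col3a1 overlapped too. In the CD140a gate, Sfrp2 of 41.8 to 74.5 came with Lum of 348 to 641 FPKM. The part of other cells in the CD146+ values was not tested. The difference between the 2 mesenchymal populations was 2.49 ± 0.79 (limma, adjusted p = 0.0163). It no longer passed without CD146+ control replicate 2 (1.40) or without CD140a+ control replicate 1 (2.38). Without control replicate 1 and Trap replicate 2 of each population, chosen after seeing the data, it was 4.10. Those CD146+ libraries were the highest for Sfrp2, so leaving them out raises the difference by itself and adds no support. Sfrp4 (chr13:19623104-19632994) was at 20.1 and 13.4 in control CD140a+ mesenchyme and at 9.71, 11.3, 14.97 and 7.62 with Trap, and at most at 2.35 in any other library. Sfrp5 was highest in mTEC at 2.41 ± 0.94, and Frzb reached a mean of 1.91 at most, in CD146+ mesenchyme, where it was at 4.57 and 4.69 in control replicate 1 and Trap replicate 2 and at 0.98 or less in the other 4 libraries.

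**Figure D4:**
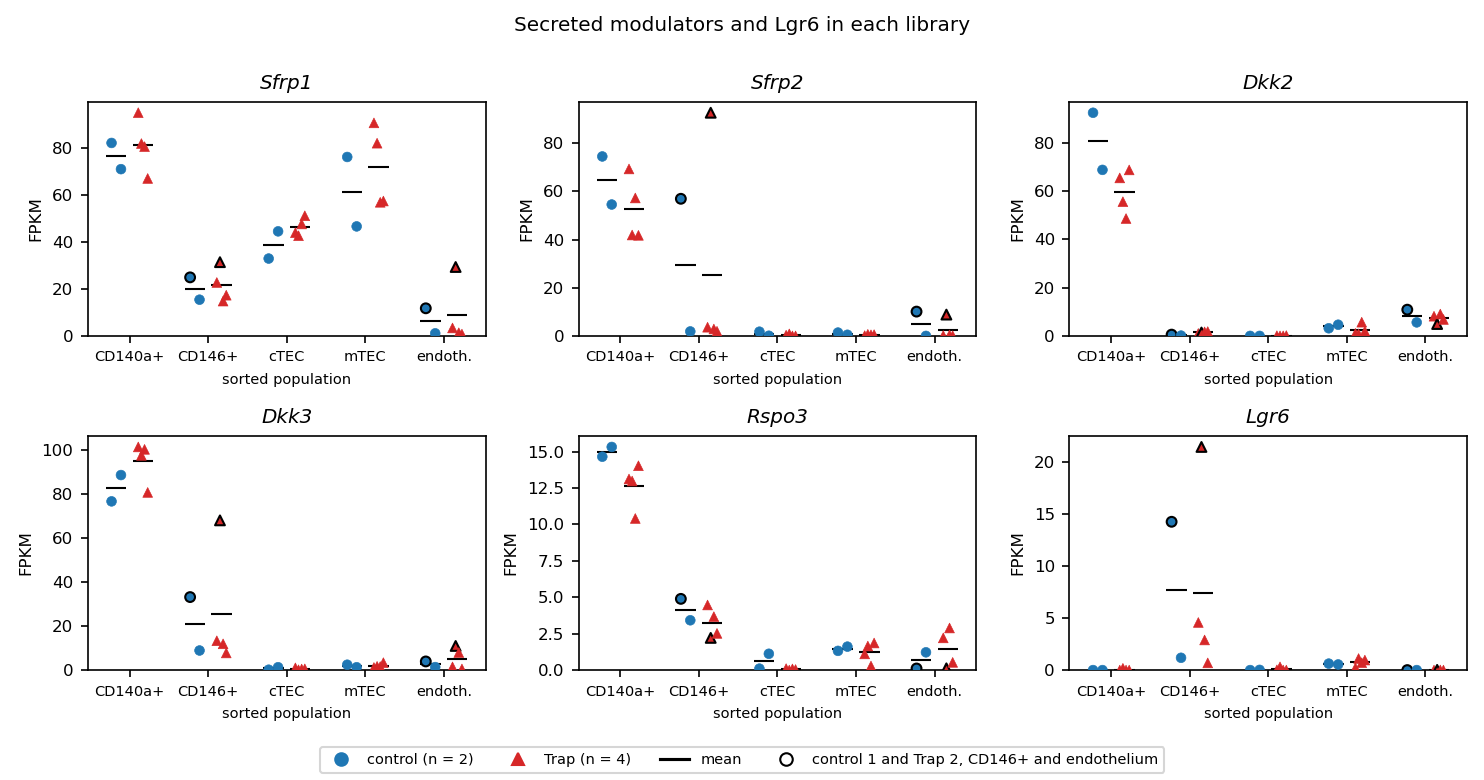
FPKM of 6 modulator genes in each library by sorted population, with control libraries as circles (n = 2), Trap libraries as triangles (n = 4), the group mean as a line, and control replicate 1 and Trap replicate 2 of CD146+ mesenchyme and endothelium ringed in black. In CD146+ mesenchyme the ringed points are the highest for Sfrp2 (56.9 and 92.6), Dkk3 and Lgr6, and in endothelium they are the highest for Sfrp1.

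Set against the mean of the other 4 populations, the members' medians lay farthest from those of all genes in CD140a+ mesenchyme and endothelium. In either direction 31 members were called in CD140a+ mesenchyme (50.1% of all genes), 21 in CD146+ mesenchyme (43.2%), 24 in cTEC (45.8%), 23 in mTEC (55.8%) and 30 in endothelium (52.1%). In CD140a+ mesenchyme 20 members were higher (17.1% of all genes were) and 11 lower (33% of all genes), and the median difference was 0.38, where it was -0.19 over all genes tested. In endothelium 4 members were higher (17.7% of all genes), Fzd4, Fzd6, Lrp5 and Dkk2, and 26 lower (34.5% of all genes), with a median of -0.68 against -0.19 over all genes. CD146+ mesenchyme had 10 higher (18.2%) and 11 lower (25%), or 12 and 8 after scaling to TPM, and cTEC 7 higher (21.2%) and 17 lower (24.5%). In mTEC 14 members were higher (38.4%) and 9 lower (17.5%), but the counts were 10 and 15 after quantile normalization, under which the all-gene median of this contrast shifted by -0.33 (by 0.11 for CD140a+ mesenchyme and 0.12 for endothelium). The members are a mixed group, so the counts describe them and do not show that they act as 1 group.

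Axin2 (chr11:108920349-108950783), a target that feeds back on the pathway and is often read as its activity, was higher in mesenchyme than in the other populations. It was at 6.37 and 7.41 FPKM in control CD140a+ mesenchyme and at 4.39, 6.24, 6.13 and 3.07 with Trap, and at 5.31 and 6.36 in control CD146+ mesenchyme and at 3.73, 5.18, 4.11 and 4.28 with Trap. These 2 populations did not differ beyond their spread (0.17 ± 0.22, 95% interval -0.28 to 0.62, limma, adjusted p = 0.647). cTEC followed at 2.43 ± 0.61, mTEC at 1.45 ± 0.54 and endothelium at 0.70 ± 0.53. CD146+ mesenchyme minus cTEC was 0.80 ± 0.22 (limma, adjusted p = 0.00374), and cTEC minus mTEC did not pass (0.46 ± 0.22, adjusted p = 0.0973). mTEC minus endothelium was 0.61 ± 0.22 (limma, adjusted p = 0.0185), but the sign turned to -0.14 under quantile normalization. Exons of Axin2 and of 7 other members (Fzd5, Fzd6, Rspo3, Sfrp2, Wnt11, Wnt5a and Wnt7b) overlap a non-coding gene on the opposite strand, and the counting is not stated to use strand, so reads of the partners cannot be told apart.

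Other genes of the pathway were counted from lists, and up to 4 of each are named by smallest p against the mean of the other populations (limma, adjusted p under 0.05 for each count). Of all genes tested, 17.1% were higher and 33% lower in CD140a+ mesenchyme, 18.2% and 25% in CD146+ mesenchyme, 21.2% and 24.5% in cTEC, 38.4% and 17.5% in mTEC and 17.7% and 34.5% in endothelium. Of 14 further targets tested, 6 were higher and 4 lower in CD140a+ mesenchyme, 5 and 4 in CD146+ mesenchyme, 5 and 3 in cTEC, 5 and 5 in mTEC and 3 and 9 in endothelium. Cd44, an adhesion receptor, was at 6.11 ± 1.57 FPKM in endothelium and at 88.5 ± 17.7 or more on average elsewhere. Dact1, which binds the signal protein Dishevelled, was at 58.8 ± 4.33 in CD140a+ mesenchyme and 1.22 ± 1.15 in endothelium. Rnf43, which removes Frizzled receptors from the cell surface, was at 10.7 ± 1.56 in cTEC and 7.21 ± 1.81 in mTEC and at 0.075 or less on average elsewhere. The targets thus did not share 1 order with Axin2. Nkd1, a feedback inhibitor named after its values were seen, was at 6.18 ± 0.96 and 5.18 ± 1.42 in CD140a+ and CD146+ mesenchyme and at 0.77 or less on average elsewhere.

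Of 13 nuclear factors tested, 5 were higher and 5 lower in CD140a+ mesenchyme (17.1% and 33% of all genes), 5 and 4 in CD146+ mesenchyme (18.2% and 25%), 5 and 4 in cTEC (21.2% and 24.5%), 4 and 3 in mTEC (38.4% and 17.5%) and 4 and 4 in endothelium (17.7% and 34.5%). Tcf7 and Lef1, which read beta-catenin on DNA, were highest on average in cTEC at 62.1 ± 14.0 and 3.81 ± 0.56 FPKM, and Pygo1, a beta-catenin co-factor, was at 0.122 ± 0.135 in endothelium. Tcf7 and Lef1 are also abundant in thymocytes, and thymocyte markers were present in each cTEC library (9 or 10 of the 10 at 1 FPKM or more, a sum of 55.0 to 141, with Rag1 at 21.4 to 50.6), and their part in these levels was not tested.

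Of 15 co-receptors and receptor regulators tested, 8 were higher and 3 lower in CD140a+ mesenchyme (17.1% and 33% of all genes), 10 and 2 in CD146+ mesenchyme (18.2% and 25%), 6 and 6 in cTEC (21.2% and 24.5%), 4 and 9 in mTEC (38.4% and 17.5%) and 2 and 13 in endothelium (17.7% and 34.5%). Gpc3, a glypican, was at 127 ± 11.1 FPKM in CD140a+ and 13.2 ± 6.50 in CD146+ mesenchyme. Adgra2 and Reck, which together pass WNT7 signals to Fzd4 on brain vessels, were highest on average in CD140a+ mesenchyme at 26.0 ± 4.31 and 61.4 ± 7.89, and in endothelium were at 9.14 ± 3.04 and 7.33 ± 2.10. Named after their values were seen, Ror2, a receptor for Wnt5a, was at 7.38 ± 1.61 in CD140a+ and 6.64 ± 1.31 in CD146+ mesenchyme, and Kremen2, a Dkk receptor, at 9.74 ± 1.75 in cTEC and 10.3 ± 3.68 in mTEC. Wls, which carries WNT proteins to the cell surface, was lowest on average in endothelium at 5.06 ± 1.62 and highest in cTEC at 22.2 ± 2.26.

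Of 8 further modulators tested, 4 were higher and 1 lower in CD140a+ mesenchyme (17.1% and 33% of all genes), 2 and 2 in CD146+ mesenchyme (18.2% and 25%), 1 and 2 in cTEC (21.2% and 24.5%), 2 and 3 in mTEC (38.4% and 17.5%) and 2 and 3 in endothelium (17.7% and 34.5%). In CD140a+ mesenchyme Igfbp4 was at 68.9 ± 8.64 FPKM and Cthrc1 at 73.6 ± 18.2. Tpbg, a membrane inhibitor, was highest on average in cTEC at 40.4 ± 5.07, and Sostdc1 in mTEC at 9.54 ± 2.79. Of 14 genes of the beta-catenin destruction complex and its signal, 2 were higher and 5 lower in CD140a+ mesenchyme, 5 and 3 in CD146+ mesenchyme, 4 and 1 in cTEC, 2 and 3 in mTEC and 2 and 6 in endothelium, beside the same shares of all genes. Ctnnb1 itself was highest on average in endothelium at 84.8 ± 10.6, and Tnks2, which marks axins for removal, was highest on average in cTEC at 80.1 ± 9.07. Of 11 planar polarity genes, 2 were higher and 4 lower in CD140a+ mesenchyme, 4 and 3 in CD146+ mesenchyme, 3 and 4 in cTEC, 4 and 3 in mTEC and 3 and 5 in endothelium, again beside those shares. Celsr1 was at 17.5 ± 2.22 in mTEC, and Daam2 was highest on average in CD146+ mesenchyme at 23.2 ± 4.10.

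Trap was compared with control to ask how loss of VEGF signals bears on these genes, and few values moved. In endothelium 1 member passed, Fzd7, which was higher with Trap (1.74% of all genes were called, 0.323% higher and 1.42% lower), and 3 members had an unadjusted p under 0.05 (14.9% of all genes). It was at 3.78 and 4.28 FPKM in controls and at 7.87, 6.01, 6.63 and 8.71 with Trap. All 4 Trap libraries were above both controls. The difference was 0.71 ± 0.17 with a 95% interval of 0.37 to 1.05 (limma, adjusted p = 0.0232), and the two-sided exact permutation test over the 6 libraries gave p = 0.0667, the smallest that 15 regroupings allow. The fit borrowed the spread from all groups: with the 6 endothelial libraries alone the difference did not pass (limma, adjusted p = 0.559), nor did it with 1 weight per population (adjusted p = 0.271), without endothelial control replicate 1 (adjusted p = 0.198) or without endothelial Trap replicate 4 (adjusted p = 0.0563).

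Other cell types that carry Fzd7 were measured beside it. Mural markers, whose cells have the most Fzd7, summed to 212 and 204 FPKM in control endothelium and to 168, 197, 204 and 190 with Trap, with 5 or 6 of the 6 at 1 FPKM or more. Of these markers Mcam, which endothelium also expresses, was at 120.1 and 119 in controls and at 83.7 to 136 with Trap, and Rgs5 was at 62.5 and 70.4 in controls and at 71.1, 85.6, 86.1 and 47.1 with Trap. Rgs5 was thus above both controls in 3 of the 4 Trap libraries, as was Myh11 (2.38 and 3.55 in controls, 3.14 to 7.1 with Trap). For Pdgfrb, Notch3 and Acta2 no Trap library was above both controls. Pdgfrb was at 5 and 4.81 in controls and lower in every Trap library, at 2.04 to 3.32. Notch3 was at 2.76 and 2.63 against 0.2 to 2.64, and Acta2 at 18.8 and 3.03 against 1.56 to 4.04. The part of mural cells in the Fzd7 difference was not tested. Fibroblast markers summed to 11.44 and 6.43 in controls and to 15.36, 10.17, 13.03 and 14.71 with Trap. Col1a1 was at 0.76 and 0.69 in controls and at 1.18 to 4.03 with Trap. Pdgfra was at 0 and 0.12 against 0.56 to 1.23, and Lum at 0.02 and 0.09 against 0.71 to 2.1. Dpt was at 0.06 and 0 against 0.1 to 1.9. For Col3a1 (5.4 to 6.78 with Trap) and Dcn (0.41 to 2.05) no Trap library was above both controls. The part of fibroblasts was not tested either. The 4 epithelial markers summed to 12.03 and 5.35 in controls and to 3.25, 41.4, 5.93 and 3.63 with Trap. Trap replicate 2, whose sum was the high one, had the lowest Fzd7 of the Trap libraries (6.01). Leaving it out therefore raised the Fzd7 difference, to 0.79 ± 0.17 (limma, adjusted p = 0.0160). The part of epithelial cells in the Fzd7 difference was not tested. Whether the Trap effect on Fzd7 differed between populations did not pass the F test (adjusted p = 0.732), and over all 5 populations it was 0.19 ± 0.07 (limma, adjusted p = 0.283), so the change is not shown to be particular to endothelium. None of the main endothelial receptors passed. Fzd4 differed by 0.03 (95% interval -0.49 to 0.56), Lrp5 by -0.14 (-0.60 to 0.33) and Lrp6 by 0.10 (-0.17 to 0.38). Fzd6, at 38.4 and 19.0 FPKM in controls and 35.8 to 66.9 with Trap, differed by 0.70 (95% interval -0.09 to 1.5, limma, adjusted p = 0.418), so a change as large as that of Fzd7 lay within its interval. Lgr5 (-0.72 ± 0.26, adjusted p = 0.165) and Fzd1 (0.85 ± 0.34, adjusted p = 0.228) came next by p and did not pass.

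No member passed in limma in CD140a+ mesenchyme (0% of all genes did), CD146+ mesenchyme (0.0183%), cTEC (0.00609%) or mTEC (0.347%). At an unadjusted p under 0.05 there were 0, 3, 0 and 4 members, against 3.71%, 5%, 2.28% and 7.49% of all genes. In CD146+ mesenchyme Wnt5b (chr6:119432531-119544347) was at 3.36 and 3.18 FPKM in controls and at 0.29, 1.51, 0.97 and 0.20 with Trap, so that the groups did not overlap (-1.36 ± 0.37, limma, adjusted p = 0.517, two-sided exact permutation p = 0.0667, the smallest possible). Dkk2 there went the other way without overlap, with 0.52 and 0.12 in controls and 1.01, 1.40, 1.67 and 1.79 with Trap (0.91 ± 0.35, limma, adjusted p = 0.898), and Lgr4 was at 13.9 and 15.7 against 17.4, 22.1, 19.4 and 18.1 (0.36 ± 0.21, limma, adjusted p = 1). In all, 6 of the 40 members did not overlap between Trap and control in CD146+ mesenchyme, 3 with Trap higher (5.8% of all genes) and 3 with Trap lower (6.84% of all genes). Elsewhere 1 member was higher (5.14% of all genes) and 3 lower (6.79%) without overlap in CD140a+ mesenchyme, 2 (5.66%) and 1 (7.87%) in cTEC, 0 (5.06%) and 2 (8.4%) in mTEC, and 1 (5.36%) and 2 (9.48%) in endothelium.

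In mTEC, Wnt2 was listed at 0 and 0.42 FPKM in controls and at 0.30, 2.48, 2.76 and 1.5 with Trap (1.10 ± 0.31, limma, adjusted p = 0.177), Wnt1 at 1.75 and 1.26 against 0, 0.07, 0 and 1.29 (-0.99 ± 0.38, adjusted p = 0.466), and Wnt10a as given above (-0.54 ± 0.21, adjusted p = 0.482). The groups overlapped in each of these. Without mTEC Trap replicate 1 Wnt2 passed (1.42 ± 0.26, limma, adjusted p = 0.00594), and without mTEC control replicate 2 Wnt10a passed (-1.08 ± 0.21, limma, adjusted p = 0.00735), so these calls turn on which library is left out. In CD140a+ mesenchyme the smallest p values were those of Wnt9a (0.69 ± 0.37), Sfrp4 (-0.58 ± 0.34) and Lrp5 (0.38 ± 0.23), all with an adjusted p of 1 in limma. Lrp5 was at 0.90 and 0.55 in controls and at 1.24, 0.91, 1.84 and 1.07 with Trap. In cTEC they were those of Lrp6 (0.19 ± 0.13), Fzd2 (-0.45 ± 0.43) and Fzd1 (-0.36 ± 0.34), again with an adjusted p of 1.

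Over all 5 populations no member passed in limma (0.426% of all genes did), and 2 had an unadjusted p under 0.05 (11.9% of all genes). Wnt5b had the smallest p (-0.57 ± 0.17, adjusted p = 0.135), ahead of Fzd7. Axin2, the pathway's target, was lower with Trap in size in each population on the fitted scale, with -0.44 ± 0.31 in CD140a+ mesenchyme, -0.36 ± 0.31 in CD146+ mesenchyme and -0.07 ± 0.31 in endothelium, and its mean change over all 5 was -0.28 ± 0.14 with an interval of -0.56 to 0.01 (limma, adjusted p = 0.434). In both mesenchymal populations every Trap library lay below both controls for Axin2. No member's Trap change differed between populations by the F test (0.0974% of all genes did, and 2 members had an unadjusted p under 0.05, where 5.91% of all genes had). The median Trap difference of the 40 members lay between -0.03 in mTEC and 0.00 in cTEC for single populations, close to the -0.04 to 0.00 of all genes.

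**Figure D5:**
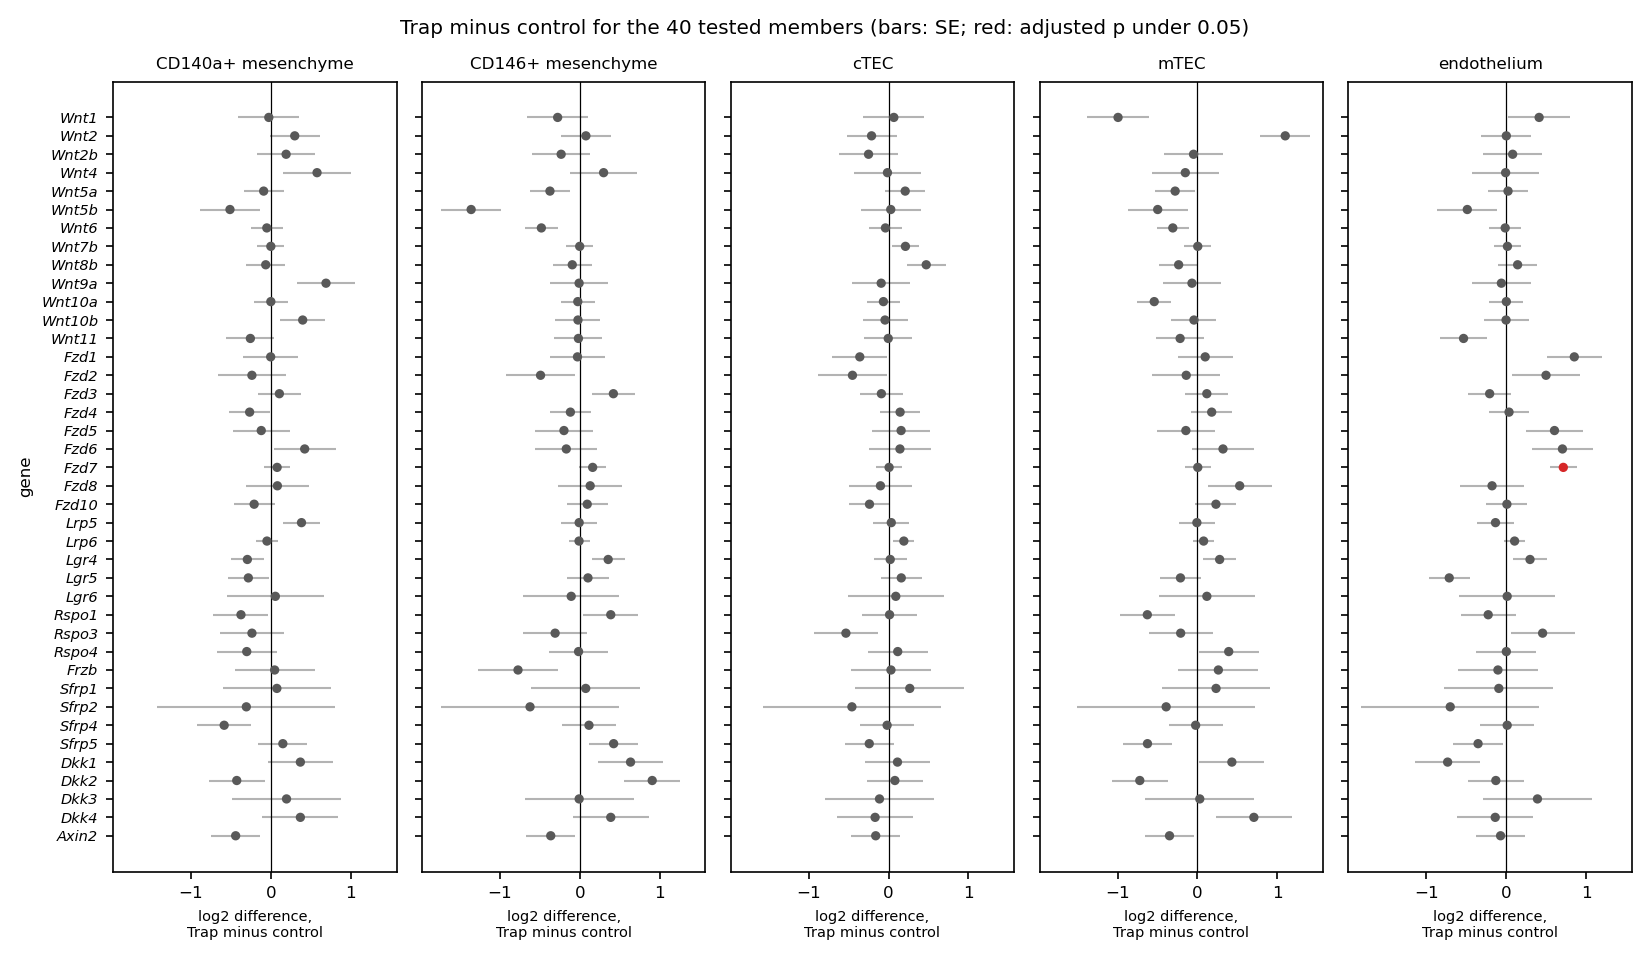
Trap minus control on the log2(FPKM + 1) scale (points, with SE bars from limma) for the 40 tested members in each population, with members at an adjusted p under 0.05 in red. Fzd7 in endothelium, at 0.71, is the one red point, and most bars cross 0.

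Of the pathway lists, 2 genes passed a Trap contrast, both in endothelium and both lower. Ccnd1, a cell-cycle gene counted among the targets, was at 55.1 and 29.7 FPKM in controls and at 11.4, 9.48, 7.84 and 1.99 with Trap (-2.44 ± 0.43, limma, adjusted p = 0.00408). Gpc4, a glypican that binds WNT proteins, was at 17.1 and 10.4 in controls and at 3.78, 4.43, 5.57 and 7.14 with Trap (-1.23 ± 0.25, limma, adjusted p = 0.0107). Neither group overlapped. They were 1 of 14 targets and 1 of 15 co-receptors tested (1.42% of all genes were lower), and in endothelium the targets had a median Trap difference of -0.03 and the co-receptors of 0.00. Axin2 in the same libraries was at 0.19 and 1.38 in controls and at 1.15, 0.02, 0.86 and 0.61 with Trap, levels at which a difference of the size seen for Ccnd1 could not show on the log2(FPKM + 1) scale.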

How the data were processed

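RNA-seq of 5 sorted stromal populations gave 30 libraries, 2 control and 4 Trap for each. The deposited values are FPKM computed by the authors, scaled to transcript length and library size. The submitters' processing notes name bcl2fastq 2.17, STAR, DESeq2 and the builds GRCm38 and mm10. Which counter, annotation and strand setting were used is not given in the sources used here. Read depth could not be recovered from the steps of the values (best score 0.205, where whole reads would give 1), so no count model or counting interval was used. Gene symbols that a spreadsheet had turned into dates were restored (27).

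Levels were tested as log2(FPKM + 1) with limma 3.58.1 (R 4.3.3): 10 group means, empirical Bayes with trend, two-sided tests, Benjamini-Hochberg adjustment over the 16425 genes at 1 FPKM or more in at least 2 libraries, threshold 0.05. Single Trap differences also had an exact permutation test. Described in full were members called highest in a population with a mean of at least 5 FPKM there, members that passed a Trap contrast and, for contrasts without a call, the 3 smallest p-values among members with a group mean of 1 FPKM or more; Axin2, Lrp5 and Lrp6 were always given. Other members named were chosen after their values were seen, to account for the whole set. The members and lists were chosen with earlier results of these data known. Coordinates are GENCODE M21 on GRCm38. The fit was tested on simulated data. Alternatives covered the pseudocount, the filter, scaling, the samples fitted, weights, a replicate block and each library left out.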

Additional observations from a re-analysis of the deposited data

Results flagged for a closer look

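In 5 of 57 groups of 4 Trap libraries, 1 library lay far from the other 3, and chance gives about 5% of such groups. A group was taken when the member had a mean of at least 5 FPKM over all 6 libraries of the population. Lgr5 in CD140a+ mesenchyme was at 2.71 FPKM in Trap replicate 2 and at 5.35 to 5.68 in the others. In CD146+ mesenchyme, Trap replicate 2 had Dkk3 at 67.9, where the others had 7.77 to 13.3, and Sfrp2 at 92.6, where the others had 1.92 to 3.60. Fzd5 in mTEC was at 13.8 in Trap replicate 1 and at 8.20 to 8.37 in the others. Sfrp1 in endothelium was at 29.4 in Trap replicate 2, the library with Krt8 at 23.3, and at 0.76 to 3.38 in the others.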

How the results depend on the processing

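Of 2679 values of single members under an alternative, 2657 kept their direction and side of the threshold, 18 lost the call, 2 gained one and 2 reversed. Both reversals were Fzd6, mTEC minus endothelium, at 0.19 without control replicate 1 and Trap replicate 2 of each population (chosen after seeing the data) and, over fits that left out 1 library, -0.44 to 0.0518, the latter without endothelial control replicate 1. With the control libraries alone, which leaves fewer samples, members called fell to 10 for CD146+ mesenchyme against cTEC, 13 against mTEC and 10 against the other 4 populations, from 21, 25 and 21. They fell to 14 for cTEC against endothelium, 10 for cTEC against mTEC, 15 for mTEC against endothelium and 12 for mTEC against the other 4, from 23, 23, 25 and 23. Members highest in CD146+ mesenchyme, cTEC and endothelium were then 1, 2 and 1. Quantile normalization gave 15 for cTEC against mTEC, with 9 higher and 6 lower in cTEC in place of 6 and 17, and the cause was not tested. Without control replicate 1 and Trap replicate 2, cTEC against endothelium had 14, highest in CD146+ mesenchyme 1 and Trap in endothelium 0. Trap in endothelium also called 0 members with its 6 libraries alone and with 1 weight per population. Leaving out 1 library gave 0 to 1 members for Trap in endothelium (0 without control replicate 1 or Trap replicate 4) and 0 to 1 in mTEC (1 without control replicate 1, control replicate 2 or Trap replicate 1). The replicate numbers were not shown to pair the libraries. Same-numbered Trap libraries of different populations had a mean correlation of 0.0273 (highest 0.102), and differently numbered ones of -0.0090. For controls the mean was 0.0167, which can say little with 2 libraries per group. With replicate numbers as a block, Fzd7 in endothelium was 0.71 (limma, adjusted p = 0.0373). In that setting 24 members became 26 for CD140a+ against CD146+ mesenchyme, and no count of calls moved by over 1.5 times. Unknown depth limits what can be said of members near 1 FPKM.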
